A study of Mus musculus with 10 samples.

Results

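Poly(I:C), the synthetic double-stranded RNA that the mice of this study later received, is met in the cell by a small set of sensors, adaptors and enzymes, and the RNA of 10 such genes was examined here in tumors that had not yet seen the drug. The genes were Tlr3, Ddx58 (the symbol the table holds for RIG-I), Ifih1, Dhx58, Mavs, Ticam1, Traf3, Trim25, Eif2ak2 and Adar, chosen by symbol, and all 10 were found and passed the filter on low counts, out of 14944 named genes that passed. Tumors of WEHI-164, a BALB/c fibrosarcoma cell line, were grown under the skin of female BALB/c mice whose genotype is labelled WT. Most of each tumor was removed and kept for RNA sequencing, the hydrogel loaded with poly(I:C) was then laid on what remained, and the animal was followed. The 5 responders (tumors 5, 9, 10, 11 and 12) later regressed completely, and the 5 non-responders (tumors 1, 2, 3, 6 and 7) grew without delay. Both groups carry the same line and genotype and are labelled untreated at sampling, so by their labels they differ only in the later outcome. A single cell line, 1 resected piece per mouse and no age in the labels limit the groups as a model. Tumors had 16002949 (responder 9) to 31160790 (responder 11) estimated counts in all.

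Double-stranded RNA in a cell is a sign of viral infection, and it is read in separate compartments. TLR3 sits in the endosome and signals through the adaptor TRIF, the product of Ticam1, whereas RIG-I and MDA5 (the product of Ifih1) read RNA in the cytosol and signal through MAVS on mitochondria. Both routes pass through TRAF3 to the kinases that activate interferon transcription, and many of the sensors are themselves raised by the interferon they help to make.

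That feedback runs through a short promoter element, the interferon-stimulated response element (ISRE), whose core was searched as GAAA, any 2 bases and GAAA on both strands in windows from 250 bases before to 50 bases after each RefSeq gene start (GRCm38.p6). Windows were given for 9 of the 10 genes, all but Dhx58. The core was found for Ddx58, Ifih1 and Eif2ak2, that is 3 of 9 genes, against 3.99% of the 27025 genes in the table and 7 of the 17 genes with a window among 24 interferon-stimulated genes used for a score further on. The windows of Tlr3, Trim25, Adar, Mavs, Ticam1 and Traf3 did not hold these letters. The 3 stretches are shown because these genes are set beside the interferon-stimulated genes in what follows, with the core in capitals. Each reads 5′ to 3′ on the strand of its gene, the minus strand in all 3.
Ddx58, chr4:40239804-40239833, core starting 2 bases past the start: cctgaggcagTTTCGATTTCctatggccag
Ifih1, chr2:62646206-62646233, core starting 32 bases past the start: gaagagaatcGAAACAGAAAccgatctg
Eif2ak2, chr17:78882535-78882564, core starting 18 bases past the start: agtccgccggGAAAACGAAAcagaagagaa
In Ddx58 the core lies in the opposite orientation, so its letters appear as the reverse complement. A second element, the interferon gamma activated site (GAS), was searched as TTCNNNGAA and was found in the windows of Eif2ak2 and of the most downstream of 3 Adar starts, against 9.55% of all genes. In Eif2ak2 the GAS and the ISRE core do not overlap.

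None of the receptors passed the test between the groups. Tlr3, the endosomal receptor (chromosome 8 of GRCm38, 45395665 to 45411080, minus strand), is given in CPM, the count relative to the size of the tumor's library, with sizes scaled by TMM normalization. Responders 5, 9, 10, 11 and 12 had 22.5, 21.3, 18.1, 19.4 and 16.8 CPM, and non-responders 1, 2, 3, 6 and 7 had 19.4, 16.01, 19.8, 17.4 and 18.8 CPM. Responders 5 and 9 lay above every non-responder, and the other 3 lay among them. Its log2 fold change, responders over non-responders, was 0.10 with a 95% interval from -0.090 to 0.29, or 0.939-fold to 1.23-fold (edgeR's quasi-likelihood test, adjusted p = 0.787). Without responder 5 the log2 fold change was 0.048. Gm45542 overlaps Tlr3 on the opposite strand, and the sources used here do not say whether strand was used in counting.

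Among the RIG-I-like receptors, Ddx58 (chromosome 4, 40203773 to 40239828), which reads short RNA with triphosphate ends, had 129, 113, 101, 103 and 107 CPM in responders 5, 9, 10, 11 and 12. Non-responders 1, 2, 3, 6 and 7 had 102, 99.6, 117, 102 and 116 CPM, so responder 5 alone lay above them. The log2 fold change was 0.048 (interval -0.11 to 0.20, edgeR adjusted p = 0.886), and it was -0.011 without responder 5. Ifih1 (chromosome 2, 62595798 to 62646255) encodes MDA5, the cytosolic sensor of long double-stranded RNA such as poly(I:C). It had 73.7, 59.0, 53.9, 59.0 and 53.0 CPM in responders 5, 9, 10, 11 and 12, and 58.6, 53.3, 66.0, 61.7 and 60.6 CPM in non-responders 1, 2, 3, 6 and 7. Responder 5 was the highest of the 10 tumors and responder 12 the lowest. Responders had a mean of 59.7 ± 8.27 CPM and non-responders one of 60.0 ± 4.64 CPM (SD over 5 tumors each). The log2 fold change was -0.0057 (interval -0.19 to 0.18, edgeR adjusted p = 0.995), and it was -0.090 without responder 5. Dhx58 (chromosome 11, 100694884 to 100704271), whose product LGP2 lacks the signaling domains and modulates the other receptors, had 43.1, 33.5, 30.8, 38.6 and 31.1 CPM in responders 5, 9, 10, 11 and 12. Non-responders 1, 2, 3, 6 and 7 had 32.9, 28.1, 38.5, 34.6 and 33.8 CPM, and responders 5 and 11 lay above all of them. Its log2 fold change was 0.082 (interval -0.14 to 0.30, edgeR adjusted p = 0.862) and 0.0047 without responder 5. It had the widest spread of the 10 genes, with the highest tumor at 1.53 times the lowest. Dhx58os overlaps it on the opposite strand.

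**Figure D1:**
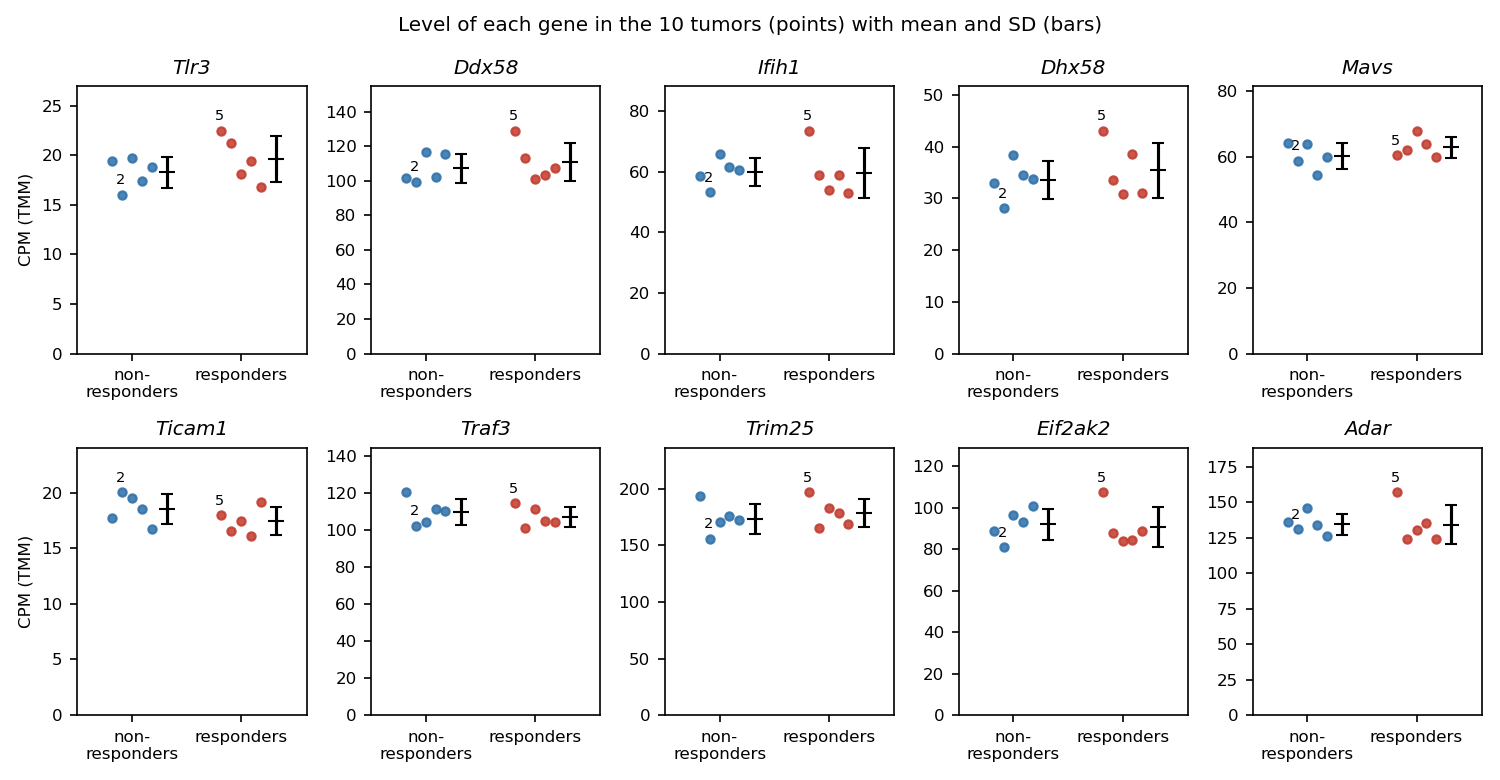
Level of each of the 10 genes in CPM (vertical axes from 0, a scale of its own for each gene) in the 5 non-responders (blue) and 5 responders (red), 1 point per tumor in order of tumor number, with the group mean and SD as black bars. Responder 5 and non-responder 2 are marked by number, and the groups overlap for all 10 genes, with Tlr3 at 16.01 to 19.8 CPM in non-responders and 16.8 to 22.5 CPM in responders.

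The adaptors varied less. Mavs (chromosome 2, 131234063 to 131248025), the mitochondrial adaptor, ran from 59.9 to 67.9 CPM in responders and from 54.4 to 64.0 CPM in non-responders, with responder 10 highest and non-responder 6 lowest. The log2 fold change was 0.062 (interval -0.057 to 0.18, edgeR adjusted p = 0.788), and it was 0.032 without non-responder 6. Ticam1 (chromosome 17, 56269319 to 56276786), which encodes TRIF, had 17.9, 16.5, 17.5, 16.1 and 19.2 CPM in responders 5, 9, 10, 11 and 12 and 17.7, 20.05, 19.5, 18.6 and 16.7 CPM in non-responders 1, 2, 3, 6 and 7. Responders 9 and 11 lay below every non-responder. It had the lowest log2 fold change of the 10 genes, -0.084 (interval -0.24 to 0.069), and the smallest unadjusted p, 0.255 (edgeR adjusted p = 0.777). The log2 fold change of Ticam1 was -0.051 without responder 11 and -0.12 without responder 12. Traf3 (chromosome 12, 111166370 to 111267153), the ubiquitin ligase on which both routes converge, ran from 101 to 115 CPM in responders and from 102 to 120 CPM in non-responders. Its log2 fold change was -0.032 (interval -0.15 to 0.081, edgeR adjusted p = 0.900), and the highest tumor was non-responder 1 at 1.19 times the lowest, the narrowest spread of the 10 genes. Trim25 (chromosome 11, 88999376 to 89020293), a ubiquitin ligase that promotes RIG-I signaling, ran from 165 to 197 CPM and from 156 to 193 CPM, with a log2 fold change of 0.043 (interval -0.091 to 0.18, edgeR adjusted p = 0.878). It was 0.0070 without non-responder 2 and 0.085 without non-responder 1.

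The last pair of genes encode enzymes that bind double-stranded RNA directly. Eif2ak2 (chromosome 17, 78852564 to 78882573) encodes PKR, a kinase that shuts down translation. It had 108, 87.9, 83.9, 84.5 and 89.0 CPM in responders 5, 9, 10, 11 and 12 and 88.6, 80.9, 96.4, 92.9 and 101 CPM in non-responders 1, 2, 3, 6 and 7. The other 4 responders lay between 83.9 and 89.0 CPM, well below responder 5. The log2 fold change was -0.021 (interval -0.18 to 0.14, edgeR adjusted p = 0.964), and it was -0.088 without responder 5. Adar (chromosome 3, 89715022 to 89753446) encodes the enzyme that turns adenosine to inosine in double-stranded RNA and so keeps the cell's own RNA from being sensed. It had 157, 124, 130, 136 and 124 CPM in responders 5, 9, 10, 11 and 12 and 136, 131, 146, 134 and 126 CPM in non-responders 1, 2, 3, 6 and 7. Responder 5 was highest and responders 9 and 12 were lower than every non-responder, so the mean was 134 ± 13.7 CPM for responders and 134 ± 7.45 CPM for the other group (SD over 5 tumors each). The log2 fold change was -0.0034 (interval -0.15 to 0.14, edgeR adjusted p = 0.996), and it was -0.064 without responder 5. The table sums each gene over its transcripts, so the constitutive and the interferon-inducible form of Adar could not be separated. Eif2ak2, Adar and Traf3 are also overlapped by annotated genes on the opposite strand.

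Across the whole comparison none of the 10 genes passed an adjusted p of 0.05 in edgeR, and the background was 0% of 15767 features. At an unadjusted p under 0.05 there were 0 of 10 genes against a background of 8.21% (1294 features). DESeq2 and limma also called none of the 10 at that level. At the adjusted level limma called none of the 10 and 0 of all features. DESeq2 called 4 features there, but of the 10 genes it gave an adjusted p to Trim25 alone (DESeq2's Wald test, adjusted p = 0.828). The others could therefore not be called by DESeq2 at the adjusted level. The groups overlapped for every gene, that is 0 of 10 without overlap against 0.926% of all features. The log2 fold change was above 0 for 5 genes and below 0 for 5, against 48.6% of features above 0, with a median of 0.020 over the 10 genes and -0.0036 over all features. The median over the 10 genes was -0.033 without responder 5 and -0.0031 without non-responder 2, and ran up to 0.047 with another tumor left out. The median size of the change, regardless of sign, was 0.046 for the 10 genes and 0.053 for the 9987 features with a mean above 10 CPM. The 10 intervals reached from -0.24 (Ticam1) to 0.30 (Dhx58), or 0.848-fold to 1.23-fold. Each gene's own interval bounds the difference its data allow, and the intervals do not show that the groups are alike. Nothing in the labels says whether tumor numbers mark a batch, and since responders hold 4 of the 5 highest numbers, the outcome and the order of the numbers cannot be told apart.

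**Figure D2:**
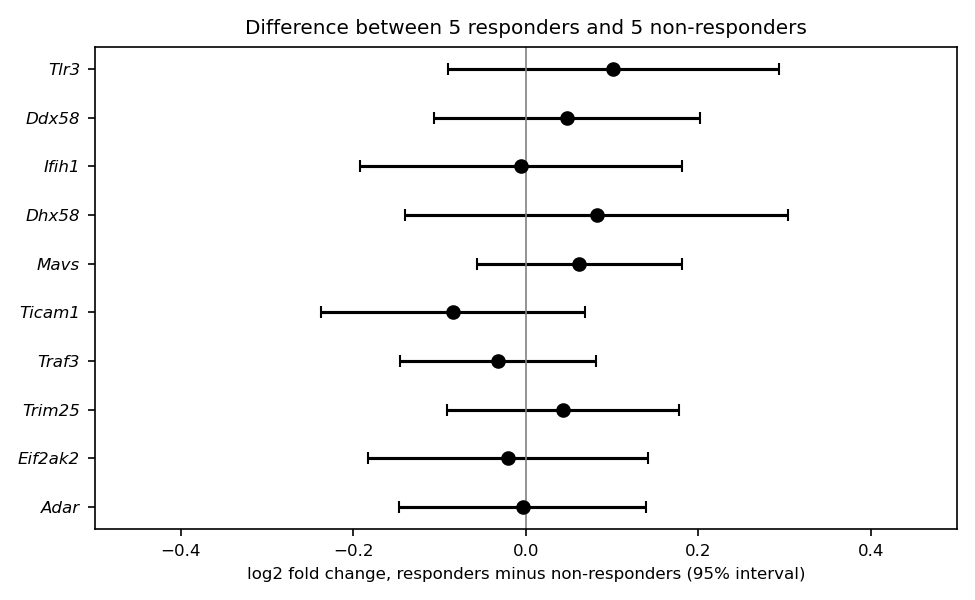
Log2 fold change of each of the 10 genes, responders minus non-responders, from edgeR (points) with its 95% interval (bars), where the vertical line marks no difference. All 10 intervals include 0, and the outermost bounds are -0.24 for Ticam1 and 0.30 for Dhx58.

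The genes also differed in how much they varied from tumor to tumor. Within the groups, the SD of log2(CPM + 1) was 0.15 for Ifih1 and 0.18 for Dhx58, higher than in 90.3% and 90.1% of the 1000 features nearest in level. For Eif2ak2 and Ddx58 the same share was 84.9% and 81.2%. Mavs, Traf3 and Ticam1 had SDs of 0.084, 0.082 and 0.098, higher than in 47.0%, 46.2% and 31.5% of features of like level. The 4 highest of these shares thus belonged to cytosolic sensors and PKR, and the 3 lowest to adaptors. Responder 5 was the highest tumor for each of those 4 genes, and how far the SDs and their order rest on that tumor was not tested. Tlr3, Adar and Trim25 lay between, at 71.7%, 74.2% and 67.9%.

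Responder 5 had the highest level of 7 genes, namely Tlr3, Ddx58, Ifih1, Dhx58, Trim25, Eif2ak2 and Adar, and non-responder 2 had the lowest level of 5. These 7 are the genes among the 10 that are commonly described as raised by interferon. To place them, a score was formed for each tumor as the mean log2(CPM + 1) of 24 interferon-stimulated genes, none of them among the 10, such as Isg15, Ifit1 and Mx1. The score was 6.37 in responder 5, 6.145 in responder 9, 5.96 in responder 10, 6.14 in responder 11 and 5.94 in responder 12. In non-responders 1, 2, 3, 6 and 7 it was 6.05, 5.75, 6.19, 6.02 and 5.98. Responder 5 was thus the highest and non-responder 2 the lowest in the score as well, and responders were higher by 0.11 on average, less than the SD in either group (p = 0.341 in an exact, two-sided permutation test).

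Over the 10 tumors 3 sensors followed this score closely. Dhx58 had a Pearson's r of 0.937 with it (permutation p = 0.00023, and 0.00115 after Benjamini-Hochberg adjustment for the 10 genes) and a Spearman's rho of 0.830 (permutation p = 0.00489). Tlr3 had an r of 0.919 (permutation p = 0.00023, adjusted p = 0.00115) and a rho of 0.952 (permutation p = 5e-05). Ifih1 had an r of 0.870 (permutation p = 0.0011, adjusted p = 0.00367) and a rho of 0.806 (permutation p = 0.00752). Responder 5 and non-responder 2 had the scores farthest from the median. When both were left out, r over the other 8 was 0.815 for Dhx58 (exact permutation p = 0.0157), 0.796 for Tlr3 (exact permutation p = 0.0191) and 0.713 for Ifih1 (exact permutation p = 0.0479), with p not adjusted. Spearman's rho over the same 8 tumors was 0.905 for Tlr3 (exact permutation p = 0.00456), and for Dhx58 and Ifih1 it no longer passed, at 0.667 and 0.643 (exact permutation p = 0.0831 and 0.0962). After each group's mean was subtracted, r was 0.942, 0.908 and 0.948 (permutation p = 0.00015, 0.00031 and 0.00012). These permutations shuffled tumors across both groups and made no allowance for the subtracted means, so such p may be too small.

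For the other interferon-inducible genes the relation was less firm, and without those 2 tumors none of them passed. Ddx58 had an r of 0.758 (permutation p = 0.0105, adjusted p = 0.0263) and a rho of 0.709 (permutation p = 0.0281), and r was 0.386 without them (exact permutation p = 0.334). Adar and Eif2ak2 had r of 0.697 and 0.672 (permutation p = 0.0268 and 0.0339, adjusted p = 0.0537 and 0.0564) with rho of 0.564 and 0.515 (permutation p = 0.0968 and 0.133). Without the 2 tumors r was 0.573 for Adar and 0.0252 for Eif2ak2 (exact permutation p = 0.135 and 0.950). Trim25 had an r of 0.613 (permutation p = 0.0572, adjusted p = 0.0817) and a rho of 0.406 (permutation p = 0.247), and its r was -0.208 without the 2 tumors (exact permutation p = 0.628). After each group's mean was subtracted, Ddx58, Adar and Eif2ak2 had r of 0.750, 0.759 and 0.756 over the 10 tumors (permutation p = 0.0140, 0.00930 and 0.0116, adjusted p = 0.0233, 0.0231 and 0.0231). By this measure 6 genes passed, against 4 by the values and 3 by Spearman's rho. Its p may be too small for the reason given above, so the 3 counts are not strictly comparable.

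For the adaptors no such relation passed the test. Mavs had an r of 0.170 and a rho of 0.309 (permutation p = 0.644 and 0.386), Traf3 had 0.249 and 0.212 (permutation p = 0.489 and 0.559), and Ticam1 had -0.361 and -0.285 (permutation p = 0.309 and 0.425). Without the 2 outermost tumors r was 0.179, -0.398 and -0.148 for Mavs, Traf3 and Ticam1 (exact permutation p = 0.684, 0.340 and 0.713), so the sign for Traf3 turned. With 10 tumors only strong relations could have passed. Whether r differs between sensors and adaptors was not tested.

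**Figure D3:**
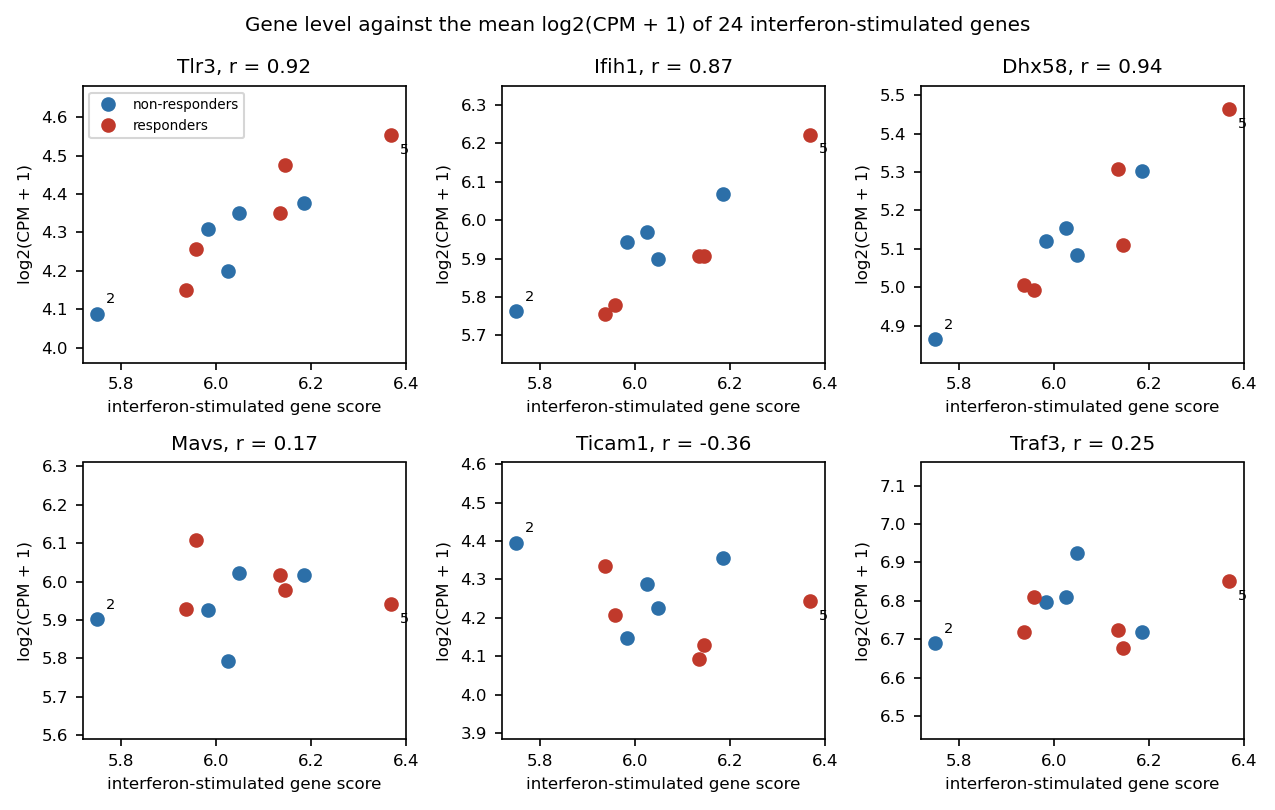
Level of 6 of the genes, as log2(CPM + 1) on axes of equal span, against the interferon-stimulated gene score (mean log2(CPM + 1) of 24 genes) in the 10 tumors, with responders in red, non-responders in blue, and responder 5 and non-responder 2 marked by number. The sensors Tlr3, Ifih1 and Dhx58 (upper panels, r = 0.92, 0.87 and 0.94) rise with the score, and the adaptors Mavs, Ticam1 and Traf3 (lower panels, r = 0.17, -0.36 and 0.25) show no clear trend.

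Between the genes themselves there were 45 pairs, of which 9 had a Pearson's r with a Benjamini-Hochberg adjusted p under 0.05 and 34 a positive r. By Spearman's rho, 1 pair had an adjusted p under 0.05. All 21 pairs among the 7 interferon-inducible genes were positive, with a median r of 0.71, whereas the 21 pairs of these with Mavs, Ticam1 and Traf3 had a median of 0.046. The closest pair was Ifih1 and Dhx58 (r = 0.904, permutation p = 0.00028, adjusted p = 0.0126; rho = 0.842, permutation p = 0.0035), with r = 0.759 without the 2 outermost tumors for Ifih1 (exact permutation p = 0.0184). Ddx58 went with Eif2ak2 (r = 0.872, permutation p = 0.00133, adjusted p = 0.0195; rho = 0.830, permutation p = 0.00449), and without its 2 outermost tumors r was 0.697 (exact permutation p = 0.0539). The only pair past the threshold that joined the 2 sets was Traf3 and Trim25, both ubiquitin ligases (r = 0.856, permutation p = 0.00139, adjusted p = 0.0195; rho = 0.939, permutation p = 0.00026), with r = 0.717 without the 2 outermost tumors for Traf3 (exact permutation p = 0.0405). For that pair the Spearman's rho also passed adjustment over the 45 pairs (adjusted p = 0.0117), while for the closest 2 pairs above it did not (adjusted p = 0.0673 for each). Without responder 5, chosen for this after the values were seen, the median r of the 21 interferon-inducible pairs was 0.48 over 9 tumors, 19 of them positive. The median of the mixed pairs was then 0.040.

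**Figure D4:**
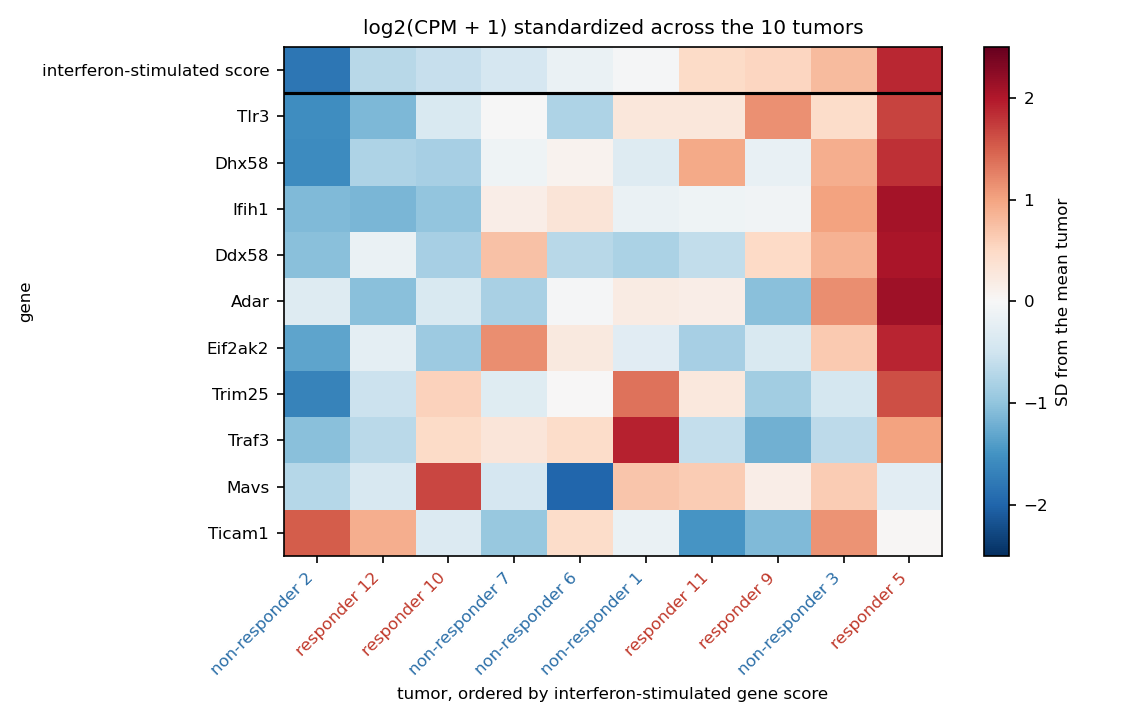
Each gene's log2(CPM + 1) standardized across the 10 tumors (color, in SD from the mean tumor), with tumors ordered by the interferon-stimulated gene score in the top row and labelled in red for responders and blue for non-responders. Responder 5, with a score of 6.37, is red for the sensors and enzymes and near 0 for Mavs and Ticam1, and responders and non-responders are mixed along the order.

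**Figure D5:**
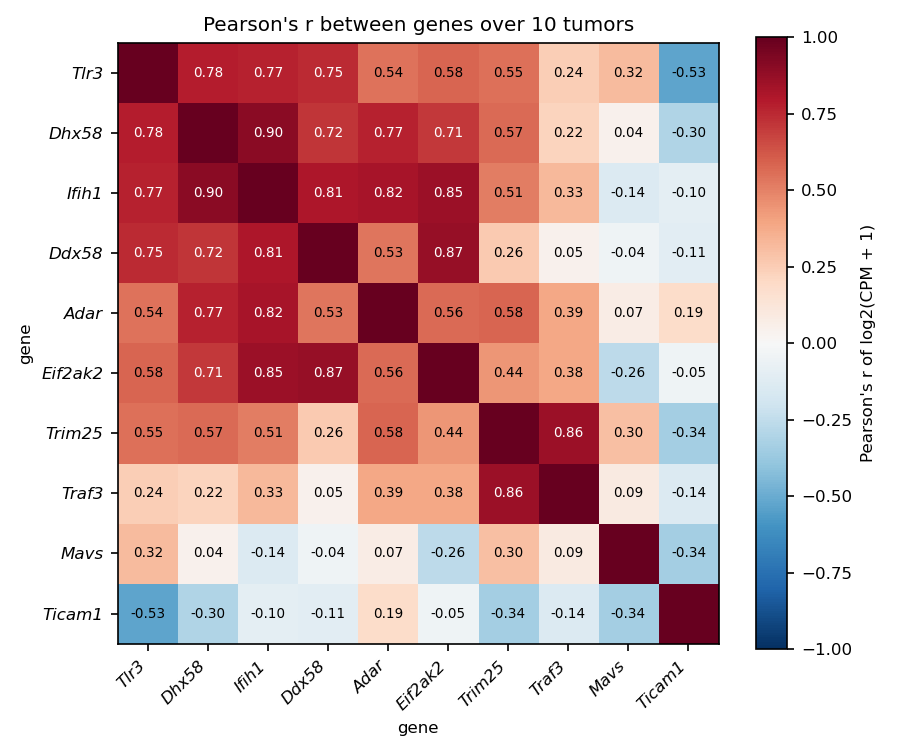
Pearson's r of log2(CPM + 1) for each of the 45 pairs of genes over the 10 tumors, with r printed in each cell. Tlr3, Dhx58, Ifih1, Ddx58, Adar, Eif2ak2 and Trim25 form a block of positive r, Traf3 goes with Trim25 (0.86), and Mavs and Ticam1 stand outside.

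The genes of the whole table most like each of the 10 were sought among 10973 named genes with a mean of at least 5 CPM, by Pearson's r over the 10 tumors, as a description. For Ifih1 they were Ifi44 (r = 0.948), Ifit3 (r = 0.940) and Usp18 (r = 0.933), 3 interferon-stimulated genes. For Dhx58 they were Ifi44 (r = 0.969), Oas1g (r = 0.960) and Ifi44l (r = 0.959). For Tlr3 they were Traf5 (r = 0.906), an adaptor of TNF receptors, Oasl1 (r = 0.900) and Oas1b (r = 0.897). Of the 24 genes of the interferon-stimulated score, 15 were among the 100 genes most like Tlr3, 13 among those most like Ifih1 and 13 among those most like Dhx58, against 8 for Ddx58, 9 for Eif2ak2, 4 for Adar and 3 for Trim25. For Mavs, Ticam1 and Traf3 there were 0. Ddx58 was most like Samd9l (r = 0.904), Lgals8 (r = 0.874) and Eif2ak2 (r = 0.872). Eif2ak2 was most like Zfp983 (r = 0.914), Ifit3b (r = 0.901) and Tyw3 (r = 0.901). Adar was most like Per2 (r = 0.897), Dock8 (r = 0.880) and H13 (r = 0.880), and Trim25 most like Nrf1 (r = 0.924), Nfatc2 (r = 0.915) and Fam20b (r = 0.901). The adaptors had other neighbours. Among those most like Traf3 were Urb2 and Urb1 (r = 0.952 and 0.951), factors of ribosome assembly. Ticam1 was most like Lrp5 (r = 0.945), a Wnt coreceptor, Hhat (r = 0.919) and Plekhg3 (r = 0.908), and Mavs like Dclk1 (r = 0.920), Tmppe (r = 0.919) and Camta1 (r = 0.896). Oas1g, Oas1b, Ifit3 and Ifit3b have close paralogs with which estimated counts can be shared.

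Responder 5, the tumor with the highest sensors, was low in RNA of T cell and NK cell genes. It had the lowest summed level of the 10 tumors for 7 T cell genes (13.9 CPM, against 15.2 to 43.0 CPM in the others) and also for 8 dendritic cell genes (17.0 CPM, against 17.1 to 27.8 CPM). For 8 NK cell genes it had 53.6 CPM, where the other 4 responders had 181 to 323 CPM and non-responders had 46.3 to 104 CPM. Its 10 macrophage genes, led by C1qa, summed to 1584 CPM within a range of 1491 to 2155 CPM. Non-responder 2, with the lowest score, had the lowest sums for NK cell and macrophage genes. The B cell genes of responder 5 summed to 1.63 CPM within a range of 1.13 to 1.92 CPM. In bulk tumor, fewer cells of a type and less RNA per cell cannot be told apart, and the part of these cells in the sensor levels was not tested. The label fibrosarcoma was matched by Vim, Col1a1 and other mesenchymal genes, which summed to 10283 to 12023 CPM. Genes of B cells and keratinocytes were low but not all absent: the B cell genes Ms4a1 and Cd79b had at most 8.12 counts and 8 to 29 counts in a tumor, and of the keratinocyte genes Krt1 had 0 counts, Krt5 at most 6 and Krt10 53 to 94.

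Beyond the 10 genes, the pathway was followed downstream in lists written from general knowledge, again with no feature at an adjusted p under 0.05. Of 25 downstream kinases and transcription factors, 15 were higher and 10 lower in responders, with a median log2 fold change of 0.038, and at an unadjusted p under 0.05 there were 3 higher and 1 lower. Over all features 48.6% were higher, 8.21% had an unadjusted p under 0.05 and 0.926% had groups without overlap. These shares are the background for this and the following lists. The kinases next to the adaptors did not pass either, with log2 fold changes of 0.080 for Tbk1 and 0.11 for Ikbke (edgeR adjusted p = 0.727 and 0.823). The transcription factors Irf3 and Irf7 had 0.076 and 0.064 (edgeR adjusted p = 0.664 and 0.883). The 4 below an unadjusted p of 0.05 were Sting1, Ikbkb, Ikbkg and Tab3. Sting1, the adaptor of cytosolic DNA sensing, had 70.0 to 88.5 CPM in responders and 57.6 to 67.4 CPM in non-responders, without overlap (log2 fold change 0.30, standard error 0.07, unadjusted p = 0.000539, edgeR adjusted p = 0.580). Ikbkb, a catalytic kinase of the NF-kB pathway, had 72.1 to 75.0 CPM against 64.9 to 69.7 CPM, also without overlap (log2 fold change 0.12, edgeR adjusted p = 0.580). Ikbkg, its regulatory subunit, had a log2 fold change of 0.19 and Tab3 had -0.18 (edgeR adjusted p = 0.580 and 0.607).

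Of 20 positive regulators and co-sensors, 6 were higher and 14 lower, with a median of -0.028. Zbp1, a sensor of Z-form RNA that triggers necroptosis, had 133 to 195 CPM in responders and 80.4 to 148 CPM in non-responders (log2 fold change 0.45, standard error 0.15, unadjusted p = 0.0105, edgeR adjusted p = 0.580). The helicases Ddx21 and Ddx3x and the mitochondrial import receptor Tomm70a were lower at an unadjusted p under 0.05, with log2 fold changes of -0.15, -0.13 and -0.095 (edgeR adjusted p = 0.580, 0.580 and 0.604). Ddx60, Dhx9, Prkra, Rnf135 (the ligase of RIG-I) and Unc93b1 (the chaperone that carries TLR3 to the endosome) had 0.058, -0.090, 0.027, 0.085 and 0.19, with edgeR adjusted p from 0.623 to 0.946. Of 22 negative regulators 10 were higher and 12 lower (median -0.025), and Nlrc5 alone had an unadjusted p under 0.05 (log2 fold change 0.30, edgeR adjusted p = 0.591). Nlrx1 had -0.23 and Tnfaip3 had 0.26 (edgeR adjusted p = 0.607 and 0.634). Of 24 other genes of double-stranded RNA binding and turnover 10 were higher and 14 lower (median -0.022). Among these Adarb1, the other catalytic adenosine deaminase, had a log2 fold change of -0.18 (edgeR adjusted p = 0.580).

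None of the products of the pathway passed adjustment. The interferon genes listed among these products were almost silent, and the list held no other interferon genes than those named here. Ifnb1 had at most 4 counts in a tumor and 11 over all 10. Ifna2 and Ifna4 had at most 2, and Ifna1, Ifnl2 and Ifnl3 had 0. With a total of 0 counts, up to 3 counts over the 10 libraries remain possible. Of 15 products 8 passed the filter, 7 of them higher in responders and Il12b lower (log2 fold change -0.031), with a median log2 fold change of 0.45, which was 0.21 without responder 11. All 8 NK cell genes were also higher in responders (median log2 fold change 0.94), and the part of these cells in the products was not tested. Cxcl10, a chemokine for T and NK cells, had 230, 229, 190.0, 251.5 and 194 CPM in responders 5, 9, 10, 11 and 12 and 170, 116, 202, 168 and 118 CPM in non-responders 1, 2, 3, 6 and 7 (log2 fold change 0.50, unadjusted p = 0.00387, edgeR adjusted p = 0.580). Responder 10 and responder 12 lay below non-responder 3. Ccl5 and Cxcl9 had log2 fold changes of 1.15 and 0.51 (edgeR adjusted p = 0.580 and 0.586). Ccl5 had 14.3 CPM in responder 5, below 4 of the 5 non-responders, and 27.7 to 67.8 CPM in the other responders. The summed NK cell genes of responder 5, at 53.6 CPM, were also below those of 3 non-responders. Of the 24 interferon-stimulated genes 20 were higher and 4 lower, with a median of 0.095, which was 0.016 without responder 5. Bst2 and Xaf1 were among those higher at an unadjusted p under 0.05 (log2 fold changes 0.21 and 0.31, edgeR adjusted p = 0.591 for each). Isg15 had 0.058 and Ifit1 had -0.086 (edgeR adjusted p = 0.920 and 0.905). Of 4 genes of the type I interferon receptor and its kinases 3 were higher, with a median of 0.052. The lists share genes with each other. The mean score of the products was 3.90 ± 0.29 in responders and 3.53 ± 0.21 in non-responders (SD, n = 5 each, exact two-sided permutation p = 0.0556, adjusted p = 0.264 over 19 lists).

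Levels between genes were compared per length, as CPM per kilobase of the mean annotated transcript, over the 10 tumors. Ticam1 was lowest at 6.004 ± 0.446 and Tlr3 next at 9.73 ± 1.02 CPM per kilobase (SD, n = 10), and the ranges of these neighbours did not overlap. Ifih1 had 19.97, Traf3 23.3 and Mavs 25.2 CPM per kilobase, and each overlapped the next. Dhx58 had 35.1, Trim25 42.0, Adar 51.1, Eif2ak2 58.7 and Ddx58 67.5 CPM per kilobase, and the other neighbours in this order without overlap were Tlr3 and Ifih1, Mavs and Dhx58, and Trim25 and Adar. The order depended on the length used, and the sources used here do not say whether the counts were already scaled for length. With the longest transcript Tlr3 was lowest at 4.30 and Ticam1 had 6.004, while Trim25 was highest at 31.5 and Ddx58 had 28.1 CPM per kilobase. With the union of exons Trim25 was again highest, at 30.6, and Ddx58 had 15.5 CPM per kilobase. Under all 3 lengths Tlr3 and Ticam1, the endosomal receptor and its adaptor, were the lowest 2 of the 10 genes.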

How the data were processed

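Per the labels and the study's methods, the authors sequenced polyA RNA as 150-base paired reads, estimated transcript abundances with Kallisto, and deposited estimated counts per gene (tximport, mm10, GRCm38 in the submitters' processing notes), not normalized for depth. The annotation release and any scaling for transcript length in tximport are not given in the sources used here. The table had 36009 rows. Each of the 9580 rows with no gene name stayed a feature of its own, and 44 repeated names were summed. Expected counts were rounded. Features above 0.366 CPM, the study's time-course filter, in at least 3 tumors were kept (15767). edgeR 4.0.16 (quasi-likelihood test, TMM, Benjamini-Hochberg adjustment over all features, threshold 0.05) was the main test. The alternatives were limma 3.58.1 and DESeq2 1.42.0, all under R 4.3.3. Intervals are the log2 fold change ± Student's quantile times its standard error. Permutation tests used Python 3.11.15, with 100000 resamples for correlations over 10 tumors and all assignments of labels for group differences (smallest possible p 0.00794).

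The biological coefficient of variation was 10.4%. No 2 tumors agreed within sampling noise: their counts differed by at least 4.99 times sampling variance per gene. Precision rests on 16002949 to 31160790 counts per tumor, and each of the 10 genes had at least 264 counts in every tumor. The fitting script was first tested on simulated counts. Coordinates and lengths are from GENCODE vM21, promoters from RefSeq.

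The 10 genes, the lists, the tests and the rule for named genes were chosen with earlier results of these data known. The rule named the 10 genes, pathway genes with an unadjusted p under 0.05, 17 fixed pathway genes, each marker list's most abundant gene, and the 3 genes most alike to each of the 10. A few genes the rule takes in are not reported here. Alternatives were other normalizations, filters, tests, pseudocounts and lengths, and leaving out each tumor.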

Additional observations from a re-analysis of the deposited data

Results flagged for a closer look

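Over 58 sets of 5 tumors (the 10 genes and the list scores in each group), 3 held a tumor whose gap to the nearest other was above 0.71 of the range, where chance gives about 2.9. Eif2ak2 was 108 CPM in responder 5, against 83.9 to 89.0 CPM in the other responders. The dendritic cell score (mean log2(CPM + 1) of 8 genes) was 1.57 in responder 5, against 1.91 to 2.05 in the other responders. The endothelial score was 3.87 in responder 11, against 4.19 to 4.27 in the other responders.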

How the results depend on the processing

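No alternative brought any of the 10 genes to an unadjusted p under 0.05. None brought one to an adjusted p under 0.05 either, but DESeq2 gave an adjusted p to Trim25 alone of the 10. Other scalings, filters and tests kept the sign of every gene but Adar, whose log2 fold change was 0.00068 with DESeq2's size factors in edgeR and 0.00075 with DESeq2's Wald test. DESeq2 called 4 of the features to which it gave an adjusted p. With each tumor left out in turn, log2 fold changes ran from -0.011 to 0.082 for Ddx58 (the sign turned without responder 5), from -0.090 to 0.035 for Ifih1 (turned by 7 of 10 omissions), from -0.057 to 0.0036 for Traf3 (turned without non-responder 1), from -0.088 to 0.017 for Eif2ak2 (turned by 3) and from -0.064 to 0.030 for Adar (turned by 5). Genes above 0 numbered 4 to 8, features called 0 to 9 (9 without responder 5), and features at an unadjusted p under 0.05 839 (without responder 11) to 2139 (without responder 5). List medians ran from 0.020 (without responder 11) to 0.060 (without non-responder 3) for downstream kinases and transcription factors, from -0.043 to -0.015 for positive regulators, from -0.038 to -0.00069 for negative regulators and from -0.026 to 0.0082 for RNA binding and turnover. The median was 0.21 for the products without responder 11 and 0.016 for the 24 interferon-stimulated genes without responder 5. The correlation with the interferon-stimulated score turned to -0.398 for Traf3 and -0.208 for Trim25 without the 2 outermost tumors. The cause of these shifts was not tested. No paired analysis was possible because the groups share no tumor number. Depth also bears on precision, with 264 counts at the lowest (Ticam1).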

Other observations

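Marker genes of other cell types gave these values, where the most abundant gene of each list is named beside it. There was no adjusted p under 0.05 for any gene in edgeR. All 8 NK cell genes were higher in responders at an unadjusted p under 0.05, with a median log2 fold change of 0.94 (most abundant gene Gzmb, at 1.48). Their mean score was 3.59 ± 0.68 in responders and 2.74 ± 0.40 in non-responders (SD, n = 5 each, exact two-sided permutation p = 0.0556, adjusted p = 0.264), and responder 5, at 2.45, lay within the non-responders. All 7 T cell genes (Cd4), all 4 granulocyte genes (Csf3r), all 10 macrophage genes (C1qa) and all 4 leukocyte genes (Laptm5) had a higher mean in responders, with medians of 0.44, 0.55, 0.14 and 0.15. Dendritic cell genes had a median of 0.057 (5 of 8 higher, with Ccr7 itself at -0.012), B cell genes 0.13 (2 of 3, Cd79b) and keratinocyte genes 0.40 (2 of 2, Krt10). Krt10 had a log2 fold change of 0.012 and the other keratinocyte gene 0.79, which thus carried that median, and the score of the pair was 2.04 ± 0.22 in responders and 1.76 ± 0.16 in non-responders (exact two-sided permutation p = 0.0476, adjusted p = 0.264). The medians were lower than 0 for fibroblast or fibrosarcoma genes (-0.16, 8 of 10 lower, with Vim itself at 0.060), endothelial genes (-0.19, 4 of 5 lower, with Pecam1 itself at 0.092), skeletal muscle genes (-0.29, 5 of 5 lower, Acta1) and adipocyte genes (-0.40, 5 of 5 lower, Fabp4). The mean score of the fibroblast or fibrosarcoma genes was 8.24 ± 0.025 in responders and 8.32 ± 0.068 in non-responders (SD, n = 5 each, exact two-sided permutation p = 0.0317, Benjamini-Hochberg adjusted p = 0.264 over 19 lists).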
